A study of Mus musculus with 26 samples.

Results

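Itga9 and Scn8a are mouse genes whose bodies contain the open chromatin regions that ranked highest among those found in every formative stem (FS) cell library and in no embryonic stem (ES) cell library of an ATAC-seq series. All peaks overlapping the GRCm38 span of either gene, extended by 50 kb on each side, were taken from the 26 deposited peak lists. They made up 291 of 451563 peaks. Merging overlapping peaks gave 24 regions at Itga9 and 27 at Scn8a, 51 of the 75600 regions of the whole series. Itga9 (gene ID 104099) spans chr9:118606709-118901003, which is 294 kb. Scn8a (gene ID 20273) spans chr15:100869863-101045938, which is 176 kb. The genes were chosen by the presence and the −log10 p rank of their peaks in FS and ES lists, so those values are described here and not tested.

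ATAC-seq maps accessible DNA with the Tn5 transposase, and each library was made from 50000 cells. In a first set of 18 libraries, the FS lines FS1 (passage 21) and FS2 (passage 29) were grown in A3XR. Epiblast stem cells (EpiSCs) were grown in AF at passage 22 (EpiSC_AF) or in AFX at passage 14 (EpiSC_AFX1) and passage 16 (EpiSC_AFX2), and ES cells in 2iL were at passage 16. Each of these 6 groups had 3 libraries. The other set, named Rd2, had 8 libraries. Rd2_ES (2 libraries) were ES cells at passage 33, with the source label Rd2GFP, which names GFP. Rd2_EpiLC (4) were epiblast-like cells after 2 days of induction in AF with KSR and a sort for weak GFP, and Rd2_AFX (2) were AFX-grown EpiSCs of passage 16. The labels do not say whether libraries of a group came from separate cultures, so a p-value measures only the spread between these libraries, which may be technical. FS libraries came from FS1 and FS2 alone, and first-set EpiSC libraries from EpiSC_AF, EpiSC_AFX1 and EpiSC_AFX2. Tests between them count libraries and not lines, and libraries of a line are not independent samples of a cell state. In bulk chromatin, a site open in fewer cells and a site less open in each cell cannot be told apart.

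Itga9 encodes the alpha subunit of an integrin, a cell surface receptor that pairs with the beta subunit encoded by Itgb1. The receptor binds extracellular matrix and cell surface proteins such as tenascin-C, VCAM1 and osteopontin. Scn8a encodes the pore-forming subunit of a voltage-gated sodium channel that carries the action potential current of neurons at the axon initial segment and the nodes of Ranvier. Neither gene is a textbook marker of pluripotency. ES cells stand for naive pluripotency, EpiSCs for the primed state, and EpiLCs and FS cells for the formative state between them. Open regions within a gene body can include enhancers of that gene or of a neighbour, which an ATAC peak alone does not tell.

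The RefSeq (GRCm38.p6) promoter table used here holds 3 transcription starts of the genes, 2 of Scn8a and an internal one of Itga9. The start of the Itga9 span is not among them. The promoters are shown because the 2 Scn8a starts differ in sequence as well as in peaks. Each sequence runs from 250 bases before to 50 after the start, on the plus strand. Capitals mark bases lying within a peak of at least 8 of the 15 FS and EpiSC lists. The listed Itga9 start lies 105 kb inside the gene span, in chr9:118711442-118711741. The upstream Scn8a start lies in chr15:100870395-100870694 and the internal one in chr15:100936021-100936320.
Itga9 internal start: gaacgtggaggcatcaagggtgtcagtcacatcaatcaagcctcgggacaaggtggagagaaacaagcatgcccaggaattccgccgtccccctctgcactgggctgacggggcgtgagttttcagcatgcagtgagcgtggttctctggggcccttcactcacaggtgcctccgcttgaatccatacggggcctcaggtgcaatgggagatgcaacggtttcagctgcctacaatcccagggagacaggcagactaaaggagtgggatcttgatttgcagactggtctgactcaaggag
Scn8a upstream start: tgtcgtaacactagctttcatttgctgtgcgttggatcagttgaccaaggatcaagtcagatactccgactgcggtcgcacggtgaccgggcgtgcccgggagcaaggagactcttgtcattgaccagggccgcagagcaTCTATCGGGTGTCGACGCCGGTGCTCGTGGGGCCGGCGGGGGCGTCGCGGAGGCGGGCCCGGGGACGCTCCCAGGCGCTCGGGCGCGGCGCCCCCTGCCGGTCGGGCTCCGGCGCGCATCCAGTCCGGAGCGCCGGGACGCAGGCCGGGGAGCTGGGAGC
Scn8a internal start: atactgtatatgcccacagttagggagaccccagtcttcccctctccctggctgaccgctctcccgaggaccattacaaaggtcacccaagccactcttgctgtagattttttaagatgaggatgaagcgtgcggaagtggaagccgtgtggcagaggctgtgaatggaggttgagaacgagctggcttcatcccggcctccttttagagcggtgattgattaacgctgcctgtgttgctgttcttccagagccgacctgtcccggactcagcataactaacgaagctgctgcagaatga
Of these 3 promoters, the upstream one of Scn8a had a peak. It carried a peak in 6 of 6 FS, 9 of 9 EpiSC and 0 of 3 ES lists. In the Rd2 set, 2 of 4 Rd2_EpiLC and 1 of 2 Rd2_AFX lists held one. Its 160 capital bases run from before the start to the downstream end of the window. This promoter held 38 CpG dinucleotides at a GC content of 70%, and 95.0% of the 32851 promoters in the table held fewer, the median being 7. The internal Scn8a promoter held 12 CpG and its nearest peak in any list was 599 bp away. The internal Itga9 promoter held 10 CpG and its nearest peak was 5433 bp away. The start of the Itga9 span itself carried a peak region in 3 of 6 FS and 8 of 9 EpiSC deposited lists. Motifs were searched on both strands, and all were missing from the 3 windows. The GC box (GGGCGG) was in 35.7% of all promoters of this length and the CCAAT box in 37.4%. The TATA box (TATAAA) was in 13.6%. The octamer (ATGCAAAT) was in 1.74%.

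The highest-ranking regions lay inside the gene bodies and not at these starts. For each region the rank of its peak was expressed as a percentile, the percent of peaks in the same list with a −log10 p at or below that of the peak. The lists differed in length, so presence in the first set was counted at equal length: as many peaks were taken from each list, by highest −log10 p, as the shortest list held. At this equal length, 373 of 22046 regions (1.69%) had a peak in 6 of 6 FS lists and in 0 of 3 ES lists, and 3 of them lay at the genes, 1 in Itga9 and 2 in Scn8a. On the deposited lists, 1401 of 48431 regions (2.89%) passed, and the genes again held these 3. Ordered by the mean FS percentile in the deposited lists, the Itga9 region was at position 1 of 373 with 98.5 and the Scn8a region at position 2 with 97.5. Regions near Mn1 (95.8) and in Slc46a3 (95.6) came next. The further Scn8a region, on the 3-prime side of the gene, was at position 361 with 68.2.

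The Itga9 region was the strongest FS-held region of the genome by this rank and was weak or missing in 1 EpiSC line. It covers chr9:118793223-118793691, is 469 bp wide and begins 187 kb into the gene, at 63.5% of the span. No other annotated gene overlaps it. The 3 FS1 libraries had percentiles of 99.8, 99.7 and 99.8 in their deposited lists, where the peak stood at positions 58, 64 and 51 of 26448, 23883 and 31263. The 3 FS2 libraries had 98.1, 97.4 and 96.3. All FS1 values lay above all FS2 values, and FS2 lists were shorter, which lowers a percentile at a given position. In the FS2 lists the peak stood at positions 267, 307 and 483, further down than in FS1. EpiSC_AF had 92.1, 96.1 and 98.4, and EpiSC_AFX2 had 99.0, 94.8 and 98.7, both overlapping with the range of FS2. EpiSC_AFX1 stood apart, with 13.7 in replicate 1, no peak in replicate 2 and 38.1 in replicate 3. Its peaks there stood at positions 15270 and 17008, outside the equal length. No ES library had a peak in the region in its deposited list, nor in 91.2% of the 373 regions.

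Ranks were also taken within lists of equal length. The Itga9 percentile there was 99.3, 99.2 and 99.4 in FS1 and 96.7, 96.2 and 94.0 in FS2. It was 84.8, 89.5 and 95.1 in EpiSC_AF and 96.9, 81.0 and 95.8 in EpiSC_AFX2. FS1 lay above every FS2 and EpiSC library, and FS2 overlapped with EpiSC_AF and EpiSC_AFX2. The region was chosen for its high FS rank, which favours FS over EpiSC in this comparison. Peak width varied with the line as well. It was 436, 457 and 451 bp in FS1, against 376, 344 and 350 bp in FS2 and 309 to 364 bp in the 6 EpiSC_AF and EpiSC_AFX2 libraries. The 2 EpiSC_AFX1 peaks were 191 and 177 bp wide, the narrowest of the 16 peaks in the region. All 16 shared a core of 112 bp, chr9:118793464-118793575.

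**Figure D1:**
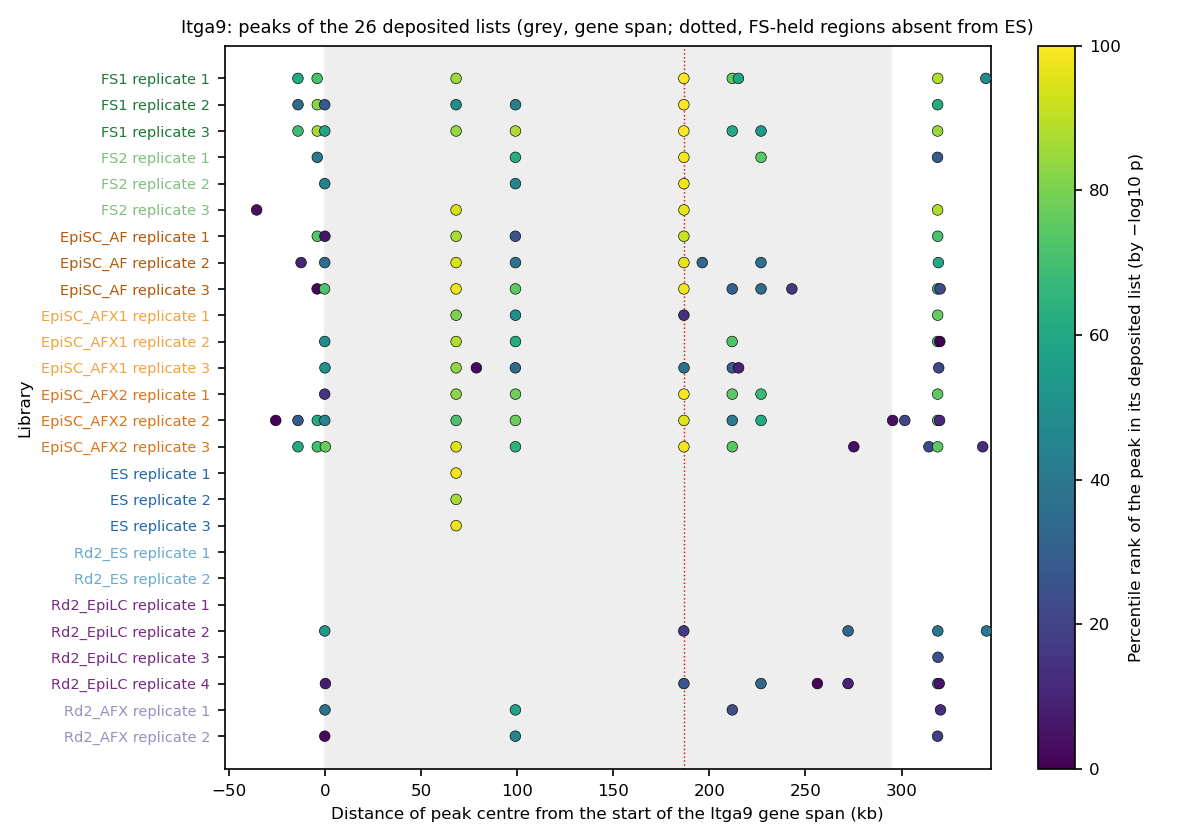
Peaks of all 26 lists at Itga9, by distance of the peak centre from the start of the gene span (kb, horizontal axis) and library (vertical axis). Colour gives the percentile of the peak in its deposited list, grey the gene span and the dotted line the FS-held region, where 14 of 15 FS and EpiSC libraries and no ES library have a peak.

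The Scn8a region, in contrast to that of Itga9, was near the top of every EpiSC list. It covers chr15:100908824-100909229, is 406 bp wide and begins 39.0 kb into the gene, at 22.2% of the span and 38.2 kb past the upstream start. It overlaps the lncRNA gene Gm52176 (chr15:100905139-100922409), so it is intragenic to both. Percentiles in the deposited lists were 99.7, 99.8 and 99.8 in FS1 and 97.3, 91.6 and 96.7 in FS2. They were 99.6, 99.7 and 99.8 in EpiSC_AF, 98.3, 95.1 and 99.6 in EpiSC_AFX1 and 99.8, 99.9 and 99.8 in EpiSC_AFX2. At equal length they were 99.1 to 99.4 in FS1, 87.7 to 95.2 in FS2 and 87.1 to 99.6 in EpiSC. FS1 and FS2 both overlapped with EpiSC at equal length, where EpiSC_AFX1 replicate 2 was the lowest of the 15 libraries. No ES library had a peak there. Peaks were 281 to 395 bp wide in FS and 353 to 393 bp in EpiSC, and the 21 peaks of all sets shared a core of 148 bp, chr15:100908967-100909114.

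The 3-prime Scn8a region was modest in FS lists and did not enter any EpiSC list at equal length. It covers chr15:101011421-101011704, is 284 bp wide and begins at 80.5% of the span. Its percentiles in the deposited lists were 84.2, 78.0 and 82.2 in FS1 and 63.4, 56.6 and 44.9 in FS2. At equal length they were 48.1, 34.8 and 31.0 in FS1 and 35.6, 36.3 and 11.2 in FS2, so the lines overlapped once lists were equally long. The weakest FS peak stood at position 7141, inside the equal length. Of the deposited EpiSC lists, 4 of 9 held a peak, with 43.8 and 41.9 in EpiSC_AF replicates 2 and 3 and 64.1 and 14.5 in EpiSC_AFX2 replicates 1 and 2. The strongest of these stood at position 9209, outside it. EpiSC_AFX1 and ES had no peak in any deposited list. At an equal length of 5000 peaks, 1 of 6 FS lists held the region, and with lists ranked by fold enrichment 5 of 6 did. Its place among FS-held regions thus depends on the length and the ranking chosen.

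**Figure D2:**
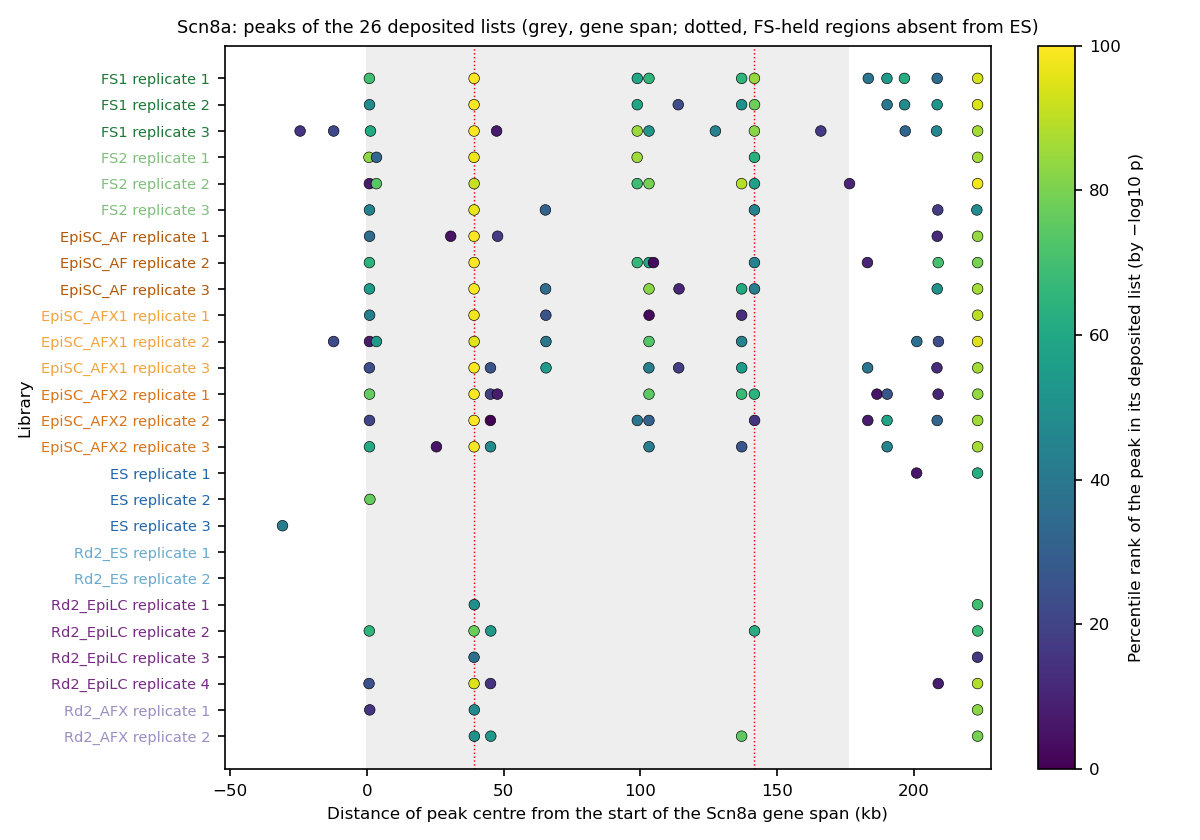
Peaks of all 26 lists at Scn8a, by distance of the peak centre from the start of the gene span (kb, horizontal axis) and library (vertical axis). Colour gives the percentile of the peak in its deposited list, grey the gene span and the dotted lines the FS-held regions, of which the first is present in all 15 FS and EpiSC libraries and the second in 6 FS and 4 EpiSC libraries.

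The comparison with EpiSC asked whether regions open in FS and not in ES were also open in the primed state. At equal length, 9 of 9 EpiSC lists held the Scn8a region, 6 of 9 the Itga9 region and 0 of 9 the 3-prime Scn8a region. Of the 373 FS-held regions, 44% were in all 9 EpiSC lists, 77.5% in at least 6 and 2.95% in none. In the deposited lists the counts were 9, 8 and 4, against 84.2% of the 373 in all 9 lists and 90.9% in at least 8. A count of 4 or fewer occurred in 3.49% of them. The Scn8a region thus had the most frequent pattern, and the 3-prime Scn8a region one of the rarer ones. The pattern of the Itga9 region, with all EpiSC_AF and EpiSC_AFX2 lists and no EpiSC_AFX1 list at equal length, was shared by 6 of 373 regions in all (1.61%). By line, 60.9% of the 373 were in all 3 EpiSC_AF lists, 67.6% in all 3 EpiSC_AFX1 lists and 65.7% in all 3 EpiSC_AFX2 lists at equal length. EpiSC_AFX1 and EpiSC_AF each lacked 10.2% in every list, and EpiSC_AFX2 lacked 7.51%. EpiSC_AFX1, the line without the Itga9 region at equal length, had the highest of the 3 shares found in all lists of a line.

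The Rd2 libraries had no part in choosing the regions. The shortest peak in their lists was 110 bp, against 150 bp in the first set, so they were compared only with each other. The Scn8a region had a peak in 4 of 4 Rd2_EpiLC lists, at percentiles of 49.6, 77.3, 36.5 and 94.6. Both Rd2_AFX lists held it, at 47.3 and 51.0. With these lists shortened to 7469 peaks, the percentiles were 28.7, 28.4, 36.5 and 81.1 in Rd2_EpiLC and 20.6 and 29.7 in Rd2_AFX. Rd2_AFX replicate 1 then lay below all 4 Rd2_EpiLC libraries and replicate 2 within their range. The Itga9 region had a peak in Rd2_EpiLC replicates 2 and 4, at 16.7 and 26.8, and in neither Rd2_AFX list. Those were the longest Rd2 lists, with 23608 and 26045 peaks, while replicates 1 and 3 had 10563 and 7469. The 3-prime Scn8a region had a peak in Rd2_EpiLC replicate 2 alone, at 62.1. Neither Rd2_ES list held any of the regions, and these lists held 471 and 2576 peaks in all. At least 1 Rd2_ES list held 4.02% of the 373.

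By two-sided Fisher's exact test of Rd2_EpiLC against Rd2_ES, p was 0.0667 for the Scn8a region, 0.467 for the Itga9 region and 1 for the 3-prime Scn8a region. With 4 against 2 libraries the smallest p possible is 0.0667, so no difference could pass 0.05, and the short Rd2_ES lists cannot be told apart from closed chromatin. Of the 373 FS-held regions, 66.8% were missing from at least 1 of the 4 Rd2_EpiLC lists, unlike the Scn8a region. Further, 86.9% were in at least 2, 13.1% in at most 1 and 7.24% in none. When the Rd2_EpiLC and Rd2_AFX lists were shortened to 7469 peaks, the Scn8a region remained in 4 of 4 Rd2_EpiLC lists, a pattern of 21.4% of the 373. The Itga9 and 3-prime Scn8a regions were then in 0 of 4, as were 23.3% of the 373. Both Rd2_AFX lists as deposited held 71.6% of the 373 regions and neither held 13.9%, the latter including the Itga9 and 3-prime Scn8a regions.

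**Figure D3:**
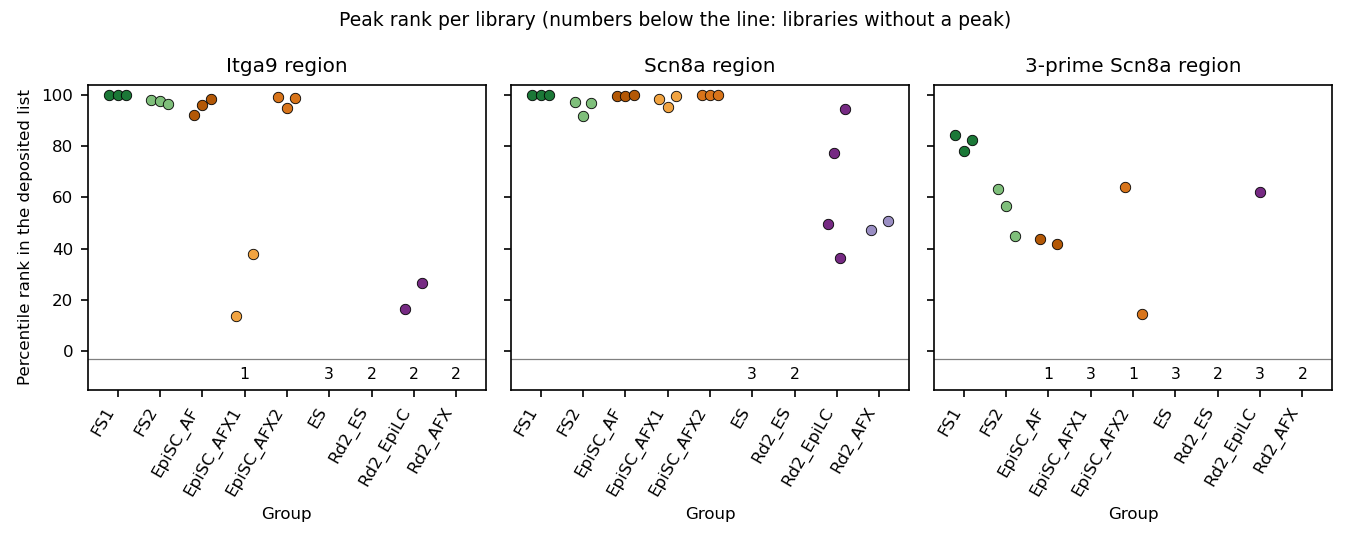
Percentile of the peak in its deposited list (vertical axis) for each library, by group (horizontal axis), at the 3 FS-held regions. Points are libraries and the numbers below the line count libraries without a peak, such as the 3 ES and 2 Rd2_ES libraries in every panel.

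**Figure D4:**
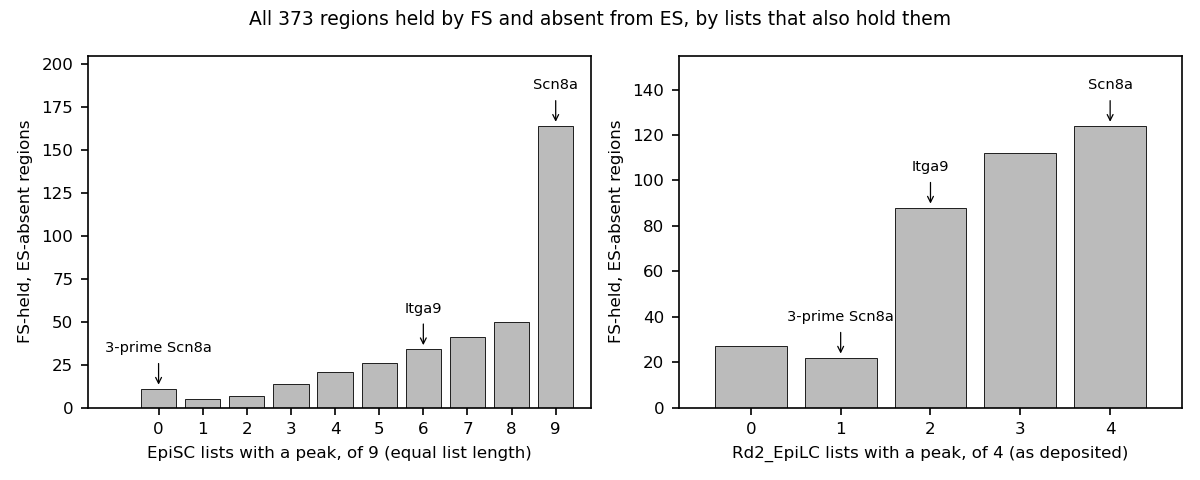
Number of the 373 FS-held, ES-absent regions (vertical axis) by the number of EpiSC lists at equal length or of Rd2_EpiLC lists as deposited that hold them (horizontal axes). Arrows mark the bars that contain the Itga9, Scn8a and 3-prime Scn8a regions.

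The remaining 48 regions of the windows were compared between FS and EpiSC as a measure that had not chosen the genes. At equal length 14 of them had a peak in an FS or EpiSC list. None passed a two-sided Fisher's exact test of 6 FS against 9 EpiSC libraries with Benjamini-Hochberg adjustment over 19646 regions, and the lowest adjusted p was 0.945. The background was also 0% called, with 2.47% higher in FS and 2.42% higher in EpiSC at an unadjusted p under 0.05. None of the 14 was under that level, the lowest being 0.235. The smallest unadjusted p this design gives by Fisher's exact test, 0.0002, corresponded to an adjusted p of 0.164. A lower adjusted p would need more regions at that smallest p, so a region could not pass on its own. The absence of calls therefore does not show that regions did not differ.

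The gene starts had peaks of middle rank in FS and EpiSC lists. The peak region at the start of the Itga9 span (chr9:118606332-118607480) was in 3 of 6 FS, 8 of 9 EpiSC, 0 of 3 ES, 2 of 4 Rd2_EpiLC and 2 of 2 Rd2_AFX deposited lists. Its median percentile over the lists with a peak was 43.2 in FS and 47.1 in EpiSC. The one at the Scn8a start (chr15:100870457-100871777) was in 6 of 6 FS, 9 of 9 EpiSC and 1 of 3 ES lists, with median percentiles of 54.1 and 42.8 in FS and EpiSC. The FS medians at the starts lay below the 98.9 of the Itga9 region and the 98.5 of the Scn8a region. Those regions were chosen for high FS ranks, so this order was largely set in advance. Past the gene ends, 1 EpiSC_AFX2 list had a peak at Itga9 at a percentile of 4.14, and 1 FS2 list had one at Scn8a at 10.3.

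Another intragenic Itga9 region was the only one at this gene with a peak in ES. It covers chr9:118674880-118675110 and was in 3 of 3 ES lists, at percentiles of 97.8, 86.5 and 97.1. It was in 9 of 9 EpiSC lists, with a median of 87.0, and in 4 of 6 FS lists, with 85.0, 48.4 and 83.7 in FS1 and 93.5 in 1 FS2 library. At equal length it was in 3 of 6 FS and 8 of 9 EpiSC lists, with an adjusted p of 0.945 by Fisher's exact test. None of the 8 Rd2 lists held it. A region before the gene (chr9:118602609-118602933) was in 3 of 3 FS1 and 0 of 3 FS2 lists at equal length, and in 2 of 9 EpiSC and 0 of 3 ES lists.

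The outer edges of both windows held regions shared by most libraries. Near the start of Ctdspl, a phosphatase gene downstream of Itga9, chr9:118925276-118927106 had peaks in 5 of 6 FS, 9 of 9 EpiSC, 0 of 3 ES, 3 of 4 Rd2_EpiLC and 2 of 2 Rd2_AFX deposited lists. Downstream of Scn8a, beyond Fignl2, chr15:101092516-101093437 was in 6 of 6 FS, 9 of 9 EpiSC, 1 of 3 ES, 4 of 4 Rd2_EpiLC and 2 of 2 Rd2_AFX lists. It was the one other Scn8a region in 6 of 6 FS lists at equal length, and the single ES list kept it out of the FS-held set. Its median percentile was 90.3 in FS, 86.1 in EpiSC and 63.0 in that ES library. The other 40 regions were each in at most 15 lists, and 21 of the 51 regions were in 1 list. Peaks were 113 to 1323 bp wide at Itga9 and 110 to 1815 bp at Scn8a.

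The windows as wholes held few peaks in ES and similar numbers in FS and EpiSC. In deposited lists, each ES library had 1 peak at Itga9, while FS libraries had 3 to 9 (median 6) and EpiSC libraries 4 to 13 (median 8). At Scn8a, ES libraries had 1 or 2 peaks, FS libraries 6 to 13 (median 9.5) and EpiSC libraries 6 to 11 (median 9). FS and EpiSC overlapped at both genes, and both lay above ES, whose lists were also shorter. These counts include the regions chosen for presence in FS and absence from ES. To test the loci apart from the regions that chose them, every FS-held, ES-absent region was left out and peaks were counted at equal length. Itga9 then had 2.5 ± 1.22 peaks in FS (SD, n = 6) and 2.78 ± 1.39 in EpiSC (SD, n = 9), a difference of FS minus EpiSC of −0.278. Scn8a had 2.5 ± 1.38 in FS (SD, n = 6) and 1.78 ± 1.09 in EpiSC (SD, n = 9), a difference of 0.722.

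Neither difference was larger than the spread between libraries. The two-sided exact permutation p was 0.841 for Itga9 and 0.301 for Scn8a, and 1 and 0.998 after Benjamini-Hochberg adjustment over 17148 protein-coding genes with a peak. Of those genes 0% were called, with 1204 (7.02%) at an unadjusted p under 0.05. The lowest adjusted p of any gene by the exact permutation test was 0.190, at the smallest p of the design, so no gene passed. A lower adjusted p would need more genes at that smallest p, so a gene could not pass on its own. By the count without FS-held regions, each ES library had 1 peak in each window and was not separate from FS or EpiSC. FS libraries had 1 to 4 at Itga9 and 1 to 5 at Scn8a, and EpiSC libraries 1 to 5 and 1 to 4. Leaving out FS1 replicate 2 turned the Itga9 difference to 0.0222, and the Scn8a difference was −0.167 on the deposited lists, so neither direction was stable.

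**Figure D5:**
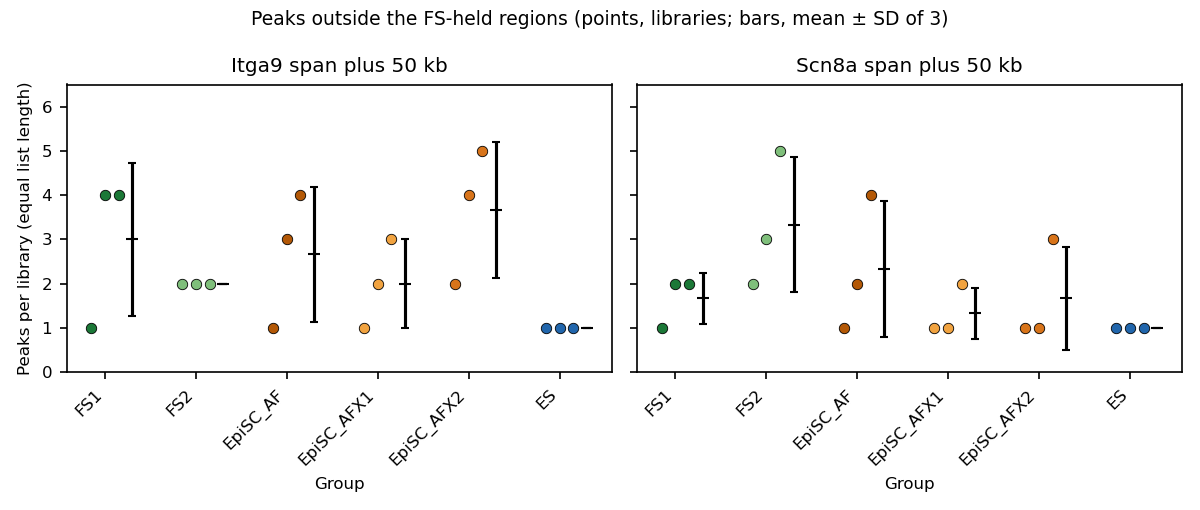
Peaks per library at equal list length outside the FS-held regions (vertical axis) in the windows of Itga9 and Scn8a, by group (horizontal axis). Points are libraries and bars are the mean ± SD of 3 libraries, and the ranges of FS and EpiSC overlap at both genes.

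An FS-held, ES-absent region was found within the span plus 50 kb of 1155 of 21887 protein-coding genes (5.28%), and 61 (0.279%) had at least 2, as Scn8a did. Of the 578 genes at least as long as Itga9, 3.63% had one, and of the 1169 at least as long as Scn8a, 3.85%. Of the 373 regions, 78.3% lay inside a protein-coding gene, as all 3 regions here did.

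Other FS-held regions were compared by the number of the 26 deposited lists in which presence differed. The region nearest in pattern to that of Itga9 lay 4514 bp from Gata5, with 0 lists differing and a mean FS percentile of 80.0. It was followed by regions in Zfp536 and near Foxl1, with 1 list differing each. The Scn8a region shared its pattern exactly with 81 regions, led by those near Sipa1l2 (95.1) and in Akap5 (93.8) and Rsbn1l (93.6). For the 3-prime Scn8a region the nearest were regions near Spred2 and Phc1, with 2 lists differing, and near Oscar, with 4. No region matched it exactly.

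Itga9 was 1 of 3 integrin genes with an FS-held region, out of 26 on a list of integrin genes, against 5.28% of all protein-coding genes, and Itga9 had been chosen for its region. The others were Itga5, the alpha subunit of the main fibronectin receptor, and Itgae, the alpha subunit of an integrin of intraepithelial lymphocytes. The Itga5 region (chr15:103334149-103334578) lay outside the gene and had a mean FS percentile of 94.3, with peaks in 9 of 9 EpiSC lists at equal length and 3 of 4 Rd2_EpiLC lists. The Itgae region (chr11:73137629-73138513) had 74.2, with 2 of 9 EpiSC lists at equal length. As deposited, 9 of 9 EpiSC lists and 3 of 4 Rd2_EpiLC lists held it. By the window test, 0 of the 25 integrin genes with a peak were called in either direction. Over all genes 0% were called as well, and even the smallest p of the design did not pass after adjustment. The median difference of the integrin genes was −0.222, against 0 over all genes. Itgb1, which encodes the partner of the Itga9 product, had a peak within 1 kb of its ends in all FS, EpiSC and ES lists as deposited.

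Scn8a was the single one of 14 sodium channel genes with an FS-held region, against 5.28% of all protein-coding genes. Scn8a had been chosen for its region. None of the 12 sodium channel genes with a peak was called by the window test, in which 0% of all genes were called. Their median difference was 0. Scn9a, which encodes a channel of peripheral nerve, had peaks at a gene end in 4 of 6 FS, 9 of 9 EpiSC and 0 of 3 ES lists, against 6, 9 and 1 for Scn8a. Of 10 genes for ligands of the Itga9 integrin, 7 had a peak in the equal-length counts of the window test. None of the 10 had an FS-held region, against 5.28% of all protein-coding genes. None of the 7 was called, against 0% of all genes, and their median difference was 0.0556. Fn1, the fibronectin gene, had gene-end peaks in all FS, EpiSC and ES lists as deposited. Tnc, the tenascin-C gene, had them in 0 of 6 FS, 2 of 9 EpiSC and 0 of 3 ES lists, and Vcam1 in none.

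The deposited lists held 11796 to 31263 peaks in FS, 15505 to 29575 in EpiSC and at most 10961 in ES. FS2 had 11796 to 14147 peaks and FS1 23883 to 31263. Sequencing depth was unknown, and its part in the results was not tested. Of markers used to check the labels, the naive gene Zfp42 had a gene-end peak in 3 of 3 ES, 0 of 6 FS and 1 of 9 EpiSC lists. The formative gene Tcf15 had one in 6 of 6 FS, 9 of 9 EpiSC and 0 of 3 ES lists, while Otx2 had one in 1 of 6 FS lists and in no EpiSC or ES list. Over the 8 naive markers, 5 had such a peak in at least 1 ES list, 5 in FS and 7 in EpiSC. Over the 6 formative markers the counts were 1, 5 and 4, and over the 6 primed markers 1, 4 and 6. These counts were taken over 3 ES, 6 FS and 9 EpiSC deposited lists, and the ES lists were the shortest. The groups therefore cannot be ranked by them.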

How the data were processed

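The data were 26 ATAC-seq peak lists in broadPeak layout, 1 per library. The submitters' processing notes name Trim Galore, Bowtie, Picard and MACS2 and the build mm10, without versions or settings. Peaks were called by the authors per library and not on pooled libraries. Each deposited peak has a score, a fold enrichment (a ratio to background), a −log10 p and a −log10 q, all the authors' values for that peak, used only to rank or filter within its list. The deposited score was not used. The lists give no read counts, so depth was unknown and no counting interval was computed. The shortest peak was 150 bp in the first set and 110 bp in Rd2.

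Overlapping peaks were merged into regions, and 1 bp of overlap counted as presence. Lists of the first set were shortened by −log10 p to the length of the shortest. Gene spans came from RefSeq GRCm38.p6, the patched form of mm10; exons were not used here, so exon and intron were not told apart. FS (6 libraries) and EpiSC (9) were compared by Fisher's exact test per region and by an exact permutation test per gene over 5005 assignments, two-sided, with Benjamini-Hochberg adjustment at 0.05. Both were tested on simulated data. Within groups, at most 0.0746% of peaks had identical coordinates in a pair of lists. Python 3.11.15, numpy 2.4.6, pandas 2.3.3, scipy 1.17.1 and matplotlib 3.10.9 were used.

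The genes, regions and gene lists were chosen with earlier results of these data known. Described singly were FS-held regions, regions within 1 kb of a gene end and regions in all libraries of a line at equal length. Of the gene lists, members with an FS-held region and up to 4 others with gene-end peaks in most libraries were named. Tnc, Vcam1, Otx2, Zfp42, Tfcp2l1, Esrrb and Nr5a2 were named after their values were seen. Alternatives were other list lengths, ranking by fold enrichment, a stricter −log10 q, a larger overlap, other windows, a replicate block and leaving out each library.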

Additional observations from a re-analysis of the deposited data

Results flagged for a closer look

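Single libraries were compared with the rest of their group in 26 groups of values, of which chance marks about 1 in 20, and 4 were marked. At the Scn8a region, EpiSC_AFX1 replicate 2 had the lowest percentile of the 9 EpiSC libraries, 95.1, apart from the others. Rd2_EpiLC replicate 1 had the widest peak in that region, 450 bp, against 209 to 241 bp in the other 3. Outside the FS-held regions, with lists shortened to 7469 peaks, 1 Rd2_EpiLC library had 1 peak at Itga9 where the others had 0. By the same count at Scn8a, 1 Rd2_EpiLC library had 0 peaks where the others had 1. In both of these counts the other libraries were tied, so any single differing count stands out. The rate of 1 in 20 does not apply to them.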

How the results depend on the processing

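Of the alternative values, 15 moved, 4 reversed and 138 did neither, by rules that compare counts within 1.5 times and differences by direction and threshold only. The number of FS-held, ES-absent regions was 373, and was 1401 on the deposited lists, 163 at 5000 peaks, 141 with a stricter threshold (−log10 q from 5 up), and 420 to 532 when 1 library was left out. The Itga9 and Scn8a regions kept 6 of 6 FS lists and 0 of 3 ES lists under all 5 alternatives of presence, with 6 to 8 and 9 EpiSC lists. The 3-prime Scn8a region was in 1 FS list at 5000 peaks, in 3 with the stricter −log10 q, and in 5 when ranked by fold enrichment. EpiSC lists holding it numbered 4 as deposited and 1 with the stricter −log10 q. Rd2_EpiLC lists holding the Itga9 region fell from 2 to 0, those holding the 3-prime region from 1 to 0, and those holding the Scn8a region from 4 to 0 at the length of the shortest Rd2 list (471 peaks). With the stricter −log10 q they were 0, 0 and 1. At 7469 peaks, a length chosen after seeing the data, they were 0, 0 and 4. The alternatives for the 3-prime region were also added after seeing the data. An overlap of 50% cannot change counts taken on merged regions.

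The FS minus EpiSC difference in window peak number at Scn8a reversed to −0.167 on the deposited lists and −0.611 with the stricter −log10 q. That at Itga9 reversed to 0.278 at 5000 peaks and to 0.0222 without FS1 replicate 2, and was −2.22 on the deposited lists (adjusted exact permutation p = 0.886) and −1.17 with the stricter −log10 q, and 0 without EpiSC_AFX2 replicate 3. That at Scn8a was 0.167 when lists were ranked by fold enrichment. Leaving out 1 library gave −0.578 to 0.0222 at Itga9 and 0.222 to 1.02 at Scn8a, and 0 genes called. The cause was not tested. Under every alternative run, 0 regions and 0 genes were called between FS and EpiSC by Fisher's exact test and the exact permutation test, with 433 to 2322 regions and 566 to 1995 genes at an unadjusted p under 0.05. On the equal-length lists even the smallest p of either test did not pass after adjustment, so these zeros are no sign of stability. With the replicate number as a block, the exact permutation test gave −0.278 (adjusted p = 1) at Itga9 and 0.722 (adjusted p = 0.985) at Scn8a, with 0 genes called and 998 at an unadjusted p under 0.05. Libraries with the same number correlated at a mean of −0.00933 (30 pairs, −0.0442 to 0.0354), so the numbers were not taken as pairs. Depth was unknown, and list length limits what absence from a list shows, above all for Rd2_ES.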

Other observations

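The regions here differed in presence between lines or sets and were picked out after their values were seen. Between Scn8a and the end of its window, chr15:101066314-101067142 had a peak in 3 of 3 FS1 deposited lists and in no other list. The region chr15:101059903-101060243 was in 2 of 3 FS1 and 3 of 3 EpiSC_AFX2 lists and in none of the others. Inside Scn8a, chr15:100934829-100935422 was in 3 of 3 EpiSC_AFX1 lists, 1 of 3 FS2 and 1 of 3 EpiSC_AF lists. At chr15:100914756-100915228, 3 of 3 EpiSC_AFX2, 1 of 3 EpiSC_AFX1, 2 of 4 Rd2_EpiLC and 1 of 2 Rd2_AFX lists had a peak, and no FS or ES list did. Inside Itga9, chr9:118705713-118706009 was in 4 of 6 FS, 9 of 9 EpiSC, 2 of 2 Rd2_AFX, 0 of 3 ES and 0 of 4 Rd2_EpiLC lists. None of these was in all libraries of a first-set line at equal length.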
